A study of Mus musculus with 44 samples.

Results

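Gene expression of vehicle-treated CH12.LX cells harvested 36 h after plating was compared with that of vehicle-treated cells harvested at 24 h. CH12.LX cells derive from a mouse lymphoma of B cells and begin to secrete antibody when stimulated. The 8 arrays compared, 4 at 36 h and 4 at 24 h, were all the arrays of these groups and were taken from 44 arrays in 11 groups of 4, which also cover untreated cells at 0 h, vehicle cells at the other times and cells given 10 nM of 2,3,7,8-tetrachlorodibenzo-p-dioxin (TCDD), a ligand of the aryl hydrocarbon receptor. Both groups had been activated at time 0 with lipopolysaccharide (LPS) from the outer membrane of Salmonella bacteria, and both had received dimethyl sulfoxide (DMSO) at 0.01%, so neither the LPS nor the solvent differs between them. Arrays were paired by replicate number, because each of the 4 replicates was treated and harvested on its own day. All arrays come from 1 cell line, and per the labels a treatment filled either 4 or 2 wells, according to its time point. Time since LPS, time in culture, cell density, nutrient supply, number of wells and hour of harvest changed together between the groups and cannot be told apart. In bulk RNA, a smaller share of cells expressing a gene and less RNA of that gene per cell cannot be told apart either.

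B cells given LPS divide for some days and then turn into antibody-secreting cells, a change driven by the transcription factors Blimp-1 (gene Prdm1), IRF4 and XBP1 and opposed by PAX5 and BACH2. Secretion of antibody loads the endoplasmic reticulum, and the unfolded protein response expands its folding and export machinery. A second branch, the integrated stress response, slows translation when amino acids run short or proteins misfold, and its transcription factor ATF4 switches on genes for amino acid import, amino acid synthesis and, when stress lasts, growth arrest and death. Growing cells also make ribosomes at a high rate, in large part under MYC, and LPS acts through Toll-like receptor 4 to switch on NF-kB target genes and, through type I interferon, antiviral genes.

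Levels are given as log2(signal + 16) after quantile normalization, a scale whose lowest value is 4, and changes are the 36 h mean minus the 24 h mean on that scale, with the standard error from the fit; 1 unit is close to 2-fold for bright genes and understates the change of dim ones. A gene was called when the adjusted p of the limma fit, blocked on replicate number, was at most 0.05. The number of arrays limits the precision. Median signals were 54.6 to 76.4 in the 36 h arrays and 45.8 to 63.3 in the 24 h arrays, and the arrays of a group correlated with mean r of 0.976 to 0.982 at 36 h and 0.980 to 0.983 at 24 h. The 3' to 5' log2 ratio of the transferrin receptor control probe sets, a sign of RNA quality, was 0.93 to 1.41 at 36 h and 0.98 to 1.19 at 24 h. Of 9 B cell markers measured, 8 lay above the expression cutoff of 6.21 in both groups, and Pax5 lay just below it, with means of 6.06 at 36 h and 6.01 at 24 h. Among the markers of other cell types, 4 of 8 T cell markers lay above the cutoff in both groups, as did 4 of 10 macrophage markers at 36 h and 5 of 10 at 24 h. Of 8 fibroblast markers 3 lay above it at 36 h and 2 at 24 h. Of 4 erythroid markers 1 did in each group, and 0 members of these 2 lists were called. The defining T cell genes Cd3d, Cd3e, Cd3g and Cd4 and the macrophage and neutrophil genes Lyz2, Mrc1, S100a8 and S100a9 had group means below the cutoff in both groups. Other markers of the T cell, macrophage and neutrophil lists lay above it in both groups. These were Cd8a, Cd8b1, Cd2 and Cd5 of the T cell list, with Cd8b1 at 9.99 at 36 h and 9.77 at 24 h (0.22, adjusted p = 0.0283). Adgre1, Csf1r, Cd68 and C1qb were those of the macrophage list. Ngp was that of the neutrophil list, where Mpo was at 6.44 at 36 h and 6.10 at 24 h. The summed signal was 2091 to 2763 at 36 h against 1863 to 2315 at 24 h for the T cell list, and 173 to 297 at 36 h against 185 to 221 at 24 h for the neutrophil list. The summed signal of the macrophage list was 1600 to 1804 at 36 h, against 1443 to 1634 at 24 h; its only called member was Cd68 (0.32, adjusted p = 0.0426), and the part of these cell types in the results below was not tested. The natural killer list summed to 467 to 567 at 36 h and 305 to 490 at 24 h, and its only member above the cutoff, Prf1, the pore-forming protein perforin, rose by 0.63 (adjusted p = 0.000601).

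From 24 to 36 h, 2153 of 11969 genes tested were called, which is 18% of them. Of these, 1121 were higher at 36 h (9.37% of the genes tested) and 1032 were lower (8.62%), and the median change of all genes tested was 0.02. Called genes that changed at least 2-fold numbered 115 (0.961%), and they were unevenly split, with 100 higher and 15 lower. Among the called genes, 2079 had the same sign in all 4 same-day pairs. The calls rest on these same pairs, so this count is no separate support for them. Without the replicate block the fit called 1200 genes, 636 higher and 564 lower. Each p-value of the main fit rests on the spread between cultures of 1 line that is left after day differences, estimated over all 44 arrays. The fit without the block keeps the day differences in that spread.

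The largest rises were led by Acod1, which makes the antimicrobial metabolite itaconate in activated immune cells. Its level was 9.24, 9.39, 9.62 and 9.35 in replicates 1 to 4 at 36 h, against 6.55, 6.06, 6.11 and 6.98 in the same replicates at 24 h. The groups lay more than 2 units apart, and the change was 2.98 ± 0.30 (SE, adjusted p = 3.14e-08). The others of the 12 largest rises were Nupr1, Clec2g, Aldh1a2, Tdrd7, Fgf21, AA467197, Tbc1d2, Ddit3, Serpinb1a, Plekhh3 and Trib3, with changes from 2.46 to 1.66, and 4 of these (Nupr1, Fgf21, Ddit3 and Trib3) belong to the integrated stress response. Clec2g, a C-type lectin gene, was at 6.71, 6.52, 6.64 and 6.70 at 36 h and at 4.78, 4.26, 4.10 and 4.30 at 24 h. At 24 h it was therefore close to the floor of the scale on every array, and its change was 2.28 ± 0.28 (SE, adjusted p = 6.88e-07). Aldh1a2, which makes retinoic acid from retinal, rose by 1.90 ± 0.30, and Serpinb1a, an inhibitor of neutrophil serine proteases, by 1.70 ± 0.34 (SE), with 1 array at 24 h, replicate 3, at 4.59 and the others at 6.42 to 6.69. In vehicle cells Acod1 had been at 10.50 at 8 h and at 6.26 at 12 h, so the low level at 24 h followed an early high one.

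The integrated stress response and its amino acid supply genes rose together. Of the 33 genes on this list 32 were measured and 29 tested; 24 of the 29 rose, 0 fell and 5 were not called, against 9.37% of all genes called higher. The median change was 0.72 over the 29 members and 0.02 over all genes tested, and within the same-day pairs the members' median was 0.53, 1.00, 0.65 and 0.66 for replicates 1 to 4. Leaving out any replicate left between 19 and 23 members called higher.

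The regulators at the head of the response rose. Atf4, which encodes the central transcription factor, rose by 0.58 (adjusted p = 0.0002), and its relatives Atf5 and Atf3 rose by 0.90 and 0.89, although Atf3 was not called without the replicate block; these 3, like the transporters and enzymes named in the next paragraph, were picked for their roles after the values were seen. Ddit3, which encodes the pro-death factor CHOP, was at 10.60, 10.35, 11.004 and 10.33 at 36 h, against 9.51, 8.33, 9.07 and 8.48 at 24 h. The lowest array at 36 h was above the highest at 24 h, and the change was 1.72 ± 0.21 (SE, adjusted p = 6.35e-07). Trib3, a pseudokinase that restrains ATF4 and CHOP, was at 10.89, 10.55, 10.86 and 10.46 at 36 h and at 9.79, 8.29, 9.42 and 8.64 at 24 h. These groups did not overlap either, and the change was 1.66 ± 0.30 (SE, adjusted p = 0.00016), with 1.44 on a second Trib3 probe set. Nupr1, a stress-induced chromatin protein, showed the largest change of the list, 2.46 ± 0.41 (SE, adjusted p = 4.59e-05), with levels of 11.53, 10.47, 11.22 and 10.59 at 36 h against 10.25, 7.54, 8.53 and 7.65 at 24 h. Replicate 1 at 24 h stood well above the other 24 h arrays and just below the lowest 36 h array; the same array was the highest of its group for Ddit3, Trib3 and Il6. A second Nupr1 probe set changed by 2.13. Fgf21, a hormone released by stressed liver and muscle, was at 8.13, 8.13, 8.39 and 7.68 at 36 h and at 6.80, 6.10, 6.59 and 5.50 at 24 h, without overlap, a change of 1.83 ± 0.25 (SE, adjusted p = 4.29e-06).

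Many genes that bring in or make amino acids rose over the same step. Slc7a11, the cystine transporter subunit that feeds glutathione synthesis, rose by 1.28 ± 0.29 (SE, adjusted p = 0.00185), with levels of 7.43 to 8.11 at 36 h against 6.03 to 7.18 at 24 h. Its partner Slc3a2 rose by 0.57, the large neutral amino acid transporter Slc7a5 by 0.46, the neutral transporter Slc1a4 by 0.55 and the cationic transporter Slc7a3 by 1.06. Slc38a2 (0.27), Slc7a1 (0.23) and Slc1a5 (0.05) were not called. All genes of the serine branch that were tested, Psph (0.72), Psat1 (0.41), Phgdh (0.27) and the mitochondrial one-carbon genes Mthfd2 (0.37) and Shmt2 (0.32), were called higher, Phgdh only with the block. Cth, which makes cysteine from cystathionine, rose by 1.47, the alanine aminotransferase gene Gpt2 by 1.55 and the proline synthesis gene Aldh18a1 by 0.66. Asns, asparagine synthetase, changed by 0.74 but was not called (adjusted p = 0.0726). Ppp1r15a, which encodes the phosphatase subunit GADD34 that ends the translation block, changed by 0.03 (adjusted p = 0.935).

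ATF4 is known to bind composite sites in the promoters of its targets, and such letters were looked for in RefSeq promoter windows (GRCm38.p6, 250 bases before to 50 after the start of a transcript). The motif searched was TGATGNAA on both strands. It lay in 7 of 23 windows of called list members (30.4%; 7 of 21 genes with a window) and in 1 of 5 windows of members not called, against 2.36% of the 12393 windows of all genes tested. Matches of called members with the largest changes are shown because they sit beside the strongest rises; each line reads 5' to 3' along the gene's strand, with the match in capitals. In Nupr1 (chr7:126625547-126625606, minus strand) the match begins 110 bases before the start. In Fgf21 (chr7:45615596-45615655, minus strand) it begins 139 bases before the start. Trib3 holds a match 14 bases after its start, which lies in the transcript and is not printed.
Nupr1: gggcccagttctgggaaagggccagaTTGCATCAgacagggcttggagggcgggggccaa
Fgf21: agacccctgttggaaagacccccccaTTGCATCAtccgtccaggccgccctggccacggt

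Aminoacyl-tRNA synthetases, which load tRNAs with amino acids and many of which are ATF4 targets, changed less and less evenly. Of 19 members tested 6 rose and 1 fell, against 9.37% of all genes called higher and 8.62% lower. The median change was 0.08, and 3 rose without replicate 2. Gars, for glycine, was at 13.24, 13.21, 13.33 and 13.14 at 36 h, against 12.89, 12.58, 12.86 and 12.65 at 24 h. Every 36 h array was above every 24 h array, a change of 0.49 ± 0.07 (SE, adjusted p = 6.27e-06). Cars, Sars and Nars, for cysteine, serine and asparagine, rose by 0.48, 0.43 and 0.40, and Tars and Lars, for threonine and leucine, by 0.30 each, Lars only with the block; this pair was picked with its values in view. The called member that fell was Farsa, the alpha subunit for phenylalanine (-0.19, also lost without the block). The motif TGATGNAA lay in 2 of 4 windows of called members and in 3 of 8 windows of members not called. In Gars (chr6:55037945-55038004, plus strand) it begins 30 bases before the start, and in Tars (chr15:11399640-11399699, minus strand) 15 bases before it.
Gars: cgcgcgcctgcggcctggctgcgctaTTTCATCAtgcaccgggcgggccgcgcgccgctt
Tars: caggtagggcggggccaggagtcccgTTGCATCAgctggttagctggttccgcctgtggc

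**Figure D1:**
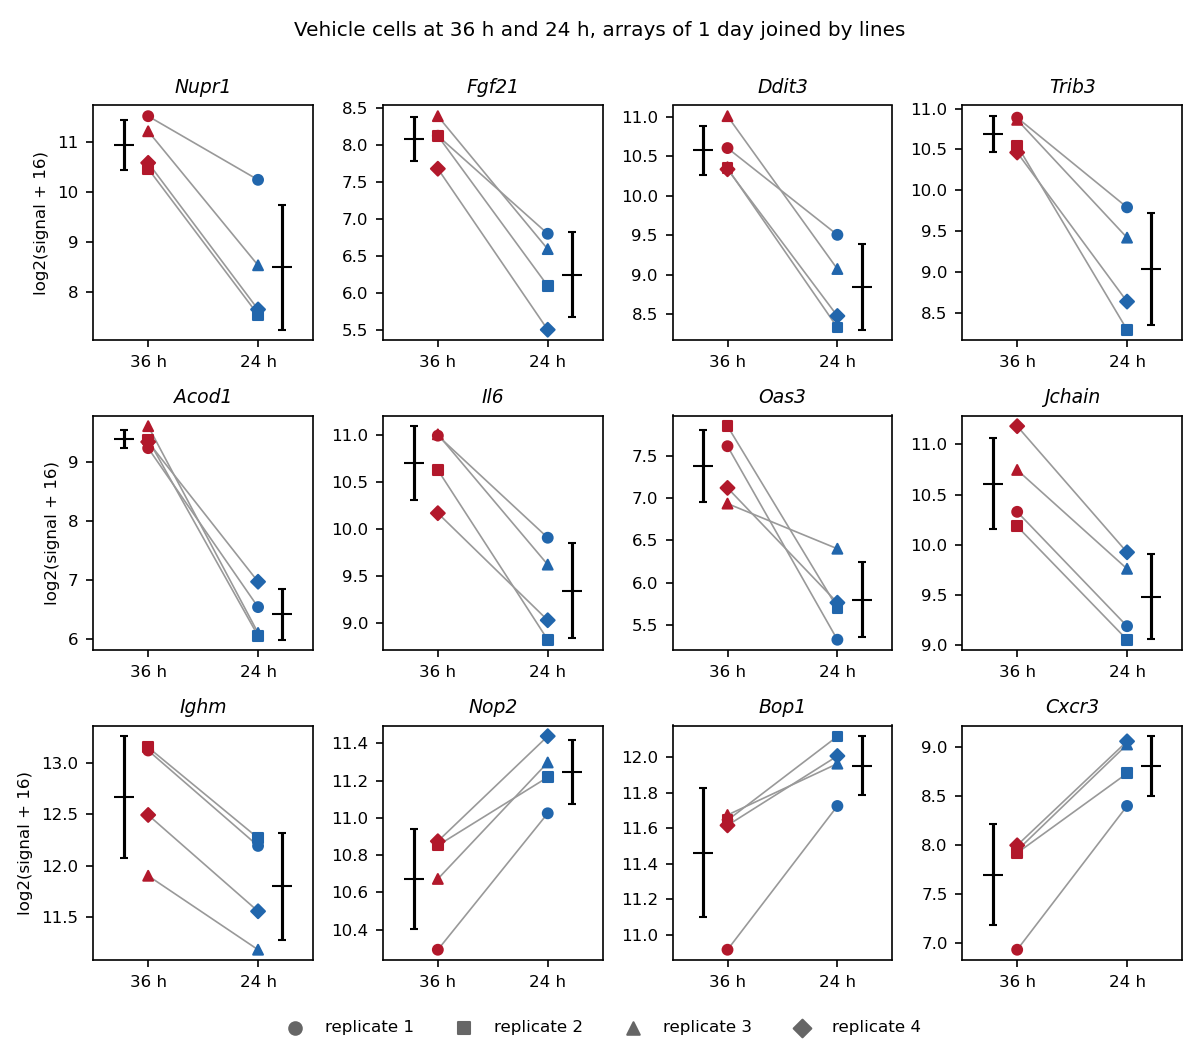
Levels of 12 genes on each of the 8 arrays, as log2(signal + 16), with 36 h left and 24 h right in each panel; lines join the 2 arrays of a replicate, handled on 1 day, and the bars beside the points show the mean and SD of 4 arrays. Nupr1, Fgf21, Ddit3, Trib3, Acod1, Il6, Oas3, Jchain and Ighm were higher at 36 h in all 4 replicates, and Nop2, Bop1 and Cxcr3 were lower in all 4; the Ighm panel shows groups that overlap although each line falls towards 24 h.

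Some genes of antibody secretion rose, while the fate regulators Prdm1 and Irf4 were not called. On the plasma cell list 8 of 18 members tested rose, against 9.37% of all genes called higher, and 0 fell, with a median change of 0.18. The 8 calls were 5 when only the 8 arrays were fitted with the block and 2 without it. Jchain, the joining chain of secreted IgM and IgA, was at 10.33, 10.18, 10.75 and 11.18 at 36 h, against 9.19, 9.05, 9.76 and 9.92 at 24 h. All 36 h arrays were higher than all 24 h arrays, a change of 1.13 ± 0.19 (SE, adjusted p = 4.86e-05). Ighm, the IgM heavy chain, was at 13.12, 13.15, 11.90 and 12.49 at 36 h and at 12.19, 12.27, 11.18 and 11.55 at 24 h. The groups overlapped, because replicates 3 and 4 were low at both times, but each of the 4 pairs was higher at 36 h, a change of 0.87 ± 0.13 (SE, adjusted p = 8.67e-06). Another Ighm probe set changed by 0.76 (adjusted p = 1.14e-05) and 4 others above the cutoff by -0.34 to 0.16 with no call, and the Ighm call was lost when all its probe sets were averaged. Fkbp11 and Edem2, both of the secretory pathway, rose by 0.75 ± 0.09 and 0.68 ± 0.08 (SE), though Edem2 changed by 0.40 without a call when its probe sets were averaged. A second Fkbp11 probe set above the cutoff changed by 0.37 and was not called in the fit of all probe sets (adjusted p = 0.397). Xbp1 itself rose by 0.26 ± 0.06 (SE, adjusted p = 0.00122), with levels of 13.65 to 13.75 at 36 h and 13.38 to 13.49 at 24 h.

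Prdm1 was at 10.92, 11.03, 10.72 and 11.14 at 36 h, against 10.88, 10.60, 10.75 and 11.04 at 24 h. These ranges overlapped, and the change of 0.14 ± 0.08 (SE) was not called (adjusted p = 0.289). Irf4 (0.07, adjusted p = 0.721), the surface proteoglycan Sdc1 (0.19, adjusted p = 0.659) and Myc (0.02, adjusted p = 0.904) were not called. Of the factors that hold the B cell state, Pax5 (0.05, adjusted p = 0.937) and Bach2 (-0.38, adjusted p = 0.564) had means below the cutoff and were not called. Of 18 B cell identity genes tested, 0 rose and 1 fell, against 9.37% and 8.62% of all genes, with a median of -0.06. The member that fell was Ms4a1, which encodes CD20, by 0.26, and it was not called without the block (adjusted p = 0.153). Ahr, the dioxin receptor, fell by 0.42 ± 0.13 (SE, adjusted p = 0.0237), with levels of 9.24 to 9.66 at 36 h and 9.58 to 9.99 at 24 h, and it too was not called without the block (adjusted p = 0.0802). Its target Cyp1a1 was near the cutoff at both times and changed by -0.15 (adjusted p = 0.653). Ahr was the only called gene of 8 tested on the aryl hydrocarbon receptor list, against 8.62% of all genes called lower.

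Of 33 genes of the unfolded protein response and protein folding, 15 rose, against 9.37% of all genes, and 0 fell. The median change was 0.19, and fits of only the 8 arrays called 8 with the block and 7 without it. Herpud1, Derl1 and Sel1l, parts of the machinery for degradation of endoplasmic reticulum proteins, rose by 0.58, 0.53 and 0.51, the last not called when its probe sets were averaged (adjusted p = 0.0545). Derl1 was at 13.89, 13.63, 13.85 and 13.81 at 36 h, against 13.27, 13.14, 13.33 and 13.33 at 24 h, with no overlap (adjusted p = 3.86e-06), and 3 further Derl1 probe sets rose by 0.42 to 0.59. Ero1a, the oxidase that drives disulfide bond formation, rose by 0.61 ± 0.10 (SE, adjusted p = 3.36e-05). The chaperone genes Hspa5 (0.01), Calr (0.04), Canx (0.02) and Pdia4 (-0.09), named after their values were seen, were not called. The endoplasmic reticulum stress element, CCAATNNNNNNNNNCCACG on both strands, lay in 2 of 10 windows of called members and in 6 of 17 windows of members not called, against 0.121% of all windows. Both matches in called members are shown, in Pdia6 (chr12:17266465-17266524, plus strand, 98 bases before the start) and, on the opposite strand, in Ero1b (chr13:12565656-12565715, plus strand, 201 bases before it); these genes changed by 0.31 and 0.29, Ero1b only with the block.
Pdia6: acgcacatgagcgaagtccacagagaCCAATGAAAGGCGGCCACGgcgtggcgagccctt
Ero1b: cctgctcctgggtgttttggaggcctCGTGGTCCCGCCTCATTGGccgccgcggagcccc

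Vesicle traffic from the endoplasmic reticulum to the Golgi had 9 of 27 members called higher, against 9.37% of all genes, and 0 lower. The median was 0.12, and the 9 became 5 without replicate 2 and in the fits of only the 8 arrays. The cargo receptor gene Lman1 was at 12.06 to 12.22 at 36 h and at 11.62 to 11.77 at 24 h, a change of 0.47 ± 0.07 (SE, adjusted p = 1.03e-05). The coat protein gene Sec24d rose by 0.54 and the cargo receptor gene Surf4 by 0.50. Golgb1, the Golgi tether giantin, rose by 0.77, but a second probe set above the cutoff changed by -0.51 without a call, and the mean over all its probe sets was -0.044.

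Ribosome biogenesis moved the other way. Of 25 genes on the MYC and ribosome biogenesis list 19 fell and 0 rose, against 8.62% of all genes called lower, with a median change of -0.31. The medians within the pairs were -0.41, -0.37, -0.28 and -0.22 for replicates 1 to 4. Nop2, a methyltransferase of ribosomal RNA, was at 10.29, 10.85, 10.67 and 10.87 at 36 h, against 11.02, 11.22, 11.30 and 11.44 at 24 h. Every array at 36 h was below every array at 24 h, a change of -0.57 ± 0.10 (SE, adjusted p = 0.000167). Bop1, which matures the large subunit, was at 10.92, 11.64, 11.67 and 11.62 at 36 h, against 11.72, 12.12, 11.96 and 12.01 at 24 h. Replicate 1 was lowest of its group at both times, and the change of -0.49 ± 0.09 (SE, adjusted p = 0.000121) was not called without the block (adjusted p = 0.134). Utp20, of the small subunit processome, fell by 0.48 ± 0.11 (SE, adjusted p = 0.00158), and Rrp12, which exports pre-ribosomes, fell by 0.49 and was lost without the block (adjusted p = 0.0885). Myc, whose name the list carries, was not called (12.72 to 12.91 at 36 h, 12.76 to 12.84 at 24 h), nor were Npm1 (-0.05) and Nop14 (-0.03), the last pair picked with values in view. The E-box CACGTG, the core of MYC sites, lay in 3 of 17 windows of called members and 1 of 4 of the others, against 9.51% of all windows. The list's count of lower calls was 12 without the block, 6 when only the 8 arrays were fitted and 10 without replicate 1.

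The cell cycle lists changed unequally. Of 33 replication and G1/S genes, 5 were lower and 1 was higher, with a median of -0.12, against 8.62% and 9.37% of all genes. The 5 lower calls were 2 without the block, 0 in the fits of only the 8 arrays, 1 without replicate 1, 3 without replicate 2 or 3, and 10 without the 4 arrays of other groups that stood apart in technical measures. Orc6 and Mcm3, parts of the machinery that licenses replication origins, fell by 0.30 ± 0.07 and 0.27 ± 0.06 (SE), while the calls of E2f1 (-0.55) and Ccne2 (-0.47) were lost without the block (adjusted p = 0.144 and 0.198). Mcm3 was at 12.20, 12.46, 12.43 and 12.48 at 36 h and at 12.67, 12.66, 12.67 and 12.66 at 24 h, so all 36 h arrays were lower. An E2F site (TTTGGCGC or TTTCCCGC, both strands) lay in 1 of 5 windows of called members, that of Mcm3, and in 8 of 29 windows of members not called, against 2.84% of all windows. Of 30 mitotic genes 2 fell and 1 rose, no more than the 8.62% and 9.37% of all genes. The gene that rose was the spindle gene Nusap1 (0.44 ± 0.10, SE), which was not called without replicate 2 (adjusted p = 0.0678). The centrosome kinase Nek2 fell (-0.30 ± 0.07, SE), but changed by -0.19 and was not called with its probe sets averaged. On the list of cyclin-dependent kinase inhibitors, pocket proteins and D cyclins, 5 of 12 rose, against 9.37% of all genes, and 0 fell, with a median of 0.27. Rb1, the retinoblastoma protein that holds back E2F, was at 11.97, 11.34, 11.17 and 11.40 at 36 h, against 11.01, 10.55, 10.45 and 10.64 at 24 h. The groups did not overlap, a change of 0.81 ± 0.09 (SE, adjusted p = 2.36e-07). Its relative Rbl1 rose by 0.61 ± 0.09 and the inhibitor genes Cdkn1b and Cdkn2d by 0.65 ± 0.11 and 0.43 ± 0.11 (SE), whereas further probe sets of Rb1 (0.21), Rbl1 (-0.02) and Cdkn1b (-0.36) were not called, and with the mean of probe sets the list had 2 calls. Of 27 proteasome genes 6 fell, against 8.62% of all genes, and 0 rose. The falls were all of 0.22 or less, and 2 fell without the block and 0 without replicate 1.

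Inflammatory genes rose in part. Of 36 genes of the NF-kB list 13 rose, against 9.37% of all genes, and 3 fell, near the 8.62% of all genes called lower. The median change was 0.34. Il6, the cytokine interleukin 6, was at 10.997, 10.63, 11.01 and 10.17 at 36 h, against 9.91, 8.82, 9.62 and 9.03 at 24 h. All 36 h arrays were higher, a change of 1.36 ± 0.23 (SE, adjusted p = 5.99e-05). Tnfaip3, the deubiquitinase A20 that damps the pathway, rose by 0.88 ± 0.16 and Nfkbiz, the nuclear regulator IkB-zeta, by 0.86 ± 0.13 (SE), with 0.63 (called) and -0.18 (not called) on further Nfkbiz probe sets. The caspase-8 inhibitor gene Cflar rose by 0.82 ± 0.12 (SE), but 3 further probe sets above the cutoff changed by 0.10 to 0.44 with no call, and the mean over all its probe sets was 0.26 (adjusted p = 0.224). The members that fell were the receptor gene Cd40 (-0.35, adjusted p = 0.00239), the Toll-like receptor adaptor gene Myd88 (-0.36, adjusted p = 0.00262) and the chemokine gene Ccl22 (-0.40, adjusted p = 0.0413, and 0.096 without the block). The rises numbered 8 without the block, 8 without replicate 2 and 6 when only the 8 arrays were fitted without the block. Among immediate early genes 3 of 17 rose, and 1 without the block, against 9.37% of all genes, led by Ier3 (0.78 ± 0.14, SE).

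Among surface molecules, Tnfsf9, the ligand of 4-1BB, was at 13.42, 13.24, 13.49 and 13.16 at 36 h, against 12.32, 11.97, 12.36 and 11.98 at 24 h. The groups lay well apart, a change of 1.17 ± 0.12 (SE, adjusted p = 2.6e-08). Cd70, the ligand of CD27, rose by 0.73 ± 0.11, the early activation antigen gene Cd69 by 0.85 ± 0.13 and the checkpoint ligand gene Cd274, which encodes PD-L1, by 0.72 ± 0.18 (SE). Ackr3, a scavenging chemokine receptor, fell by 0.88 ± 0.17 (SE, adjusted p = 0.000295), and the inflammatory chemokine receptor gene Cxcr3 was among the largest falls. Cxcr3 was at 6.93, 7.92, 7.94 and 8.00 at 36 h and at 8.40, 8.73, 9.02 and 9.06 at 24 h, without overlap, a change of -1.10 ± 0.14 (SE, adjusted p = 1.69e-06). On the lists of homing receptors and of the TNF family, 5 of 22 and 3 of 20 members rose and 1 and 3 fell, the 5 becoming 2 without replicate 2, against 9.37% of all genes higher and 8.62% lower; the TNF family counts lie near those shares.

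Part of the interferon response rose in vehicle cells. Of 34 members tested 15 rose, against 9.37% of all genes, and 0 fell. The median change was 0.51, with medians within the pairs of 0.69, 0.77, 0.25 and 0.54. Oas3, which makes the activator of the antiviral RNase L, was at 7.62, 7.85, 6.94 and 7.12 at 36 h, against 5.32, 5.70, 6.40 and 5.76 at 24 h. The 24 h group had all but 1 array below the cutoff and lay wholly under the 36 h group, a change of 1.59 ± 0.34 (SE, adjusted p = 0.00109). Usp18, which removes the ubiquitin-like protein ISG15 and damps interferon signalling, was at 10.73, 10.96, 10.34 and 9.98 at 36 h, against 8.87, 9.26, 9.75 and 8.75 at 24 h. Here too the groups were apart, a change of 1.34 ± 0.27 (SE, adjusted p = 0.000545). Oasl2 and Oasl1, relatives of Oas3, rose by 1.33 ± 0.31 and 1.16 ± 0.20 (SE). The immunity-related GTPase genes Igtp (-0.05), Irgm1 (-0.23) and Iigp1 (-0.37) were not called; this family was picked with its values in view. The count of rises was 9 without replicate 1 and 9 without replicate 2, and 23 without the 4 arrays that stood apart. Of the presentation genes, 3 of 14 for MHC class I rose, and 2 without the block, against 9.37% of all genes. H2-M3 (0.60) and the peptide transporter Tap1 (0.42, or 0.20 and not called with its probe sets averaged) were among them. For class II 4 of 16 rose, where H2-Ob, which restrains peptide loading, rose by 0.94 ± 0.17 (SE) and the others were called only with the block.

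Stress and death genes beyond the integrated stress response also rose in part. Of 21 p53 targets tested 7 rose, against 9.37% of all genes, and 0 fell, with a median of 0.28. Gadd45a, a growth arrest gene, rose by 1.21 ± 0.27, Trp53inp1 by 1.07 ± 0.21, the pro-death gene Bbc3 (PUMA) by 0.95 ± 0.18 and the mTORC1 restraint Sesn2, which is on the integrated stress response list as well, by 0.84 ± 0.19 (SE). The p53 targets Mdm2 (0.03) and Ccng1 (-0.05), picked after their values were seen, were not called, and likewise Cdkn1a (0.44, adjusted p = 0.147) was not called. In the Bcl2 family 5 of 14 rose and 1 fell, against 9.37% of all genes higher and 8.62% lower. The rises held pro-death genes (Bbc3; Pmaip1, which encodes NOXA, by 0.76 ± 0.11; Bmf by 0.70 ± 0.19, SE) and the survival gene Bcl2 (0.68 ± 0.15, SE). A second Bmf probe set changed by -0.03 and 4 further Bcl2 probe sets by -0.14 to 0.61 with 1 of them called; with probe sets averaged neither gene was called (0.24, adjusted p = 0.436 for Bmf; 0.30, adjusted p = 0.095 for Bcl2). On the antioxidant list, Slc7a11 and Gpx4, the peroxidase that protects membrane lipids (0.39 ± 0.06, SE), rose. The 2 subunits of the enzyme that starts glutathione synthesis fell: Gclc was at 9.91, 9.99, 10.08 and 9.99 at 36 h, against 10.53, 10.57, 10.68 and 10.53 at 24 h, a change of -0.59 ± 0.07 (SE, adjusted p = 9.89e-07), and Gclm changed by -0.51 ± 0.10 (SE; -0.35 and not called with its probe sets averaged). In all, 2 of 21 antioxidant genes rose, near the 9.37% of all genes called higher, and 5 fell, against 8.62% called lower. Of 34 lysosome and autophagy genes 8 rose, against 9.37% of all genes, and 1 fell, with 3 higher without the block and 2 without replicate 2. The rises were led by the autophagy receptor Nbr1 (0.66 ± 0.08, SE) and the autophagosome protein gene Map1lc3b (0.44 ± 0.08, SE). With its probe sets averaged Map1lc3b changed by 0.25 and was not called. Its further probe sets above the cutoff rose by 0.46 and 0.38, both called in the fit of all probe sets, and another below the cutoff changed by -0.27.

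Most metabolic lists stayed near the background of 9.37% of all genes called higher and 8.62% lower. On the glycolysis and hypoxia list 4 of 25 rose and 1 fell; Vegfa, the vascular growth factor, was at 8.56, 8.51, 8.59 and 7.86 at 36 h and at 7.77, 6.10, 7.01 and 6.61 at 24 h, a change of 1.51 ± 0.33 (SE, adjusted p = 0.00116), and the phosphofructokinase gene Pfkp rose by 0.49 ± 0.09 (SE; 0.26 and not called with its probe sets averaged). The hypoxia targets Bnip3 (0.80), Pdk1 (0.71) and Slc2a1 (0.15), chosen after their values were seen, were not called. Calls numbered 1 higher of 19 for cholesterol synthesis, 1 higher and 1 lower of 22 for fatty acid and phospholipid synthesis, 3 higher of 26 for the nuclear-coded respiratory chain and 1 lower of 17 for TGF-beta signalling, and those of the cholesterol, respiratory chain and TGF-beta lists were all lost without the block.

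**Figure D2:**
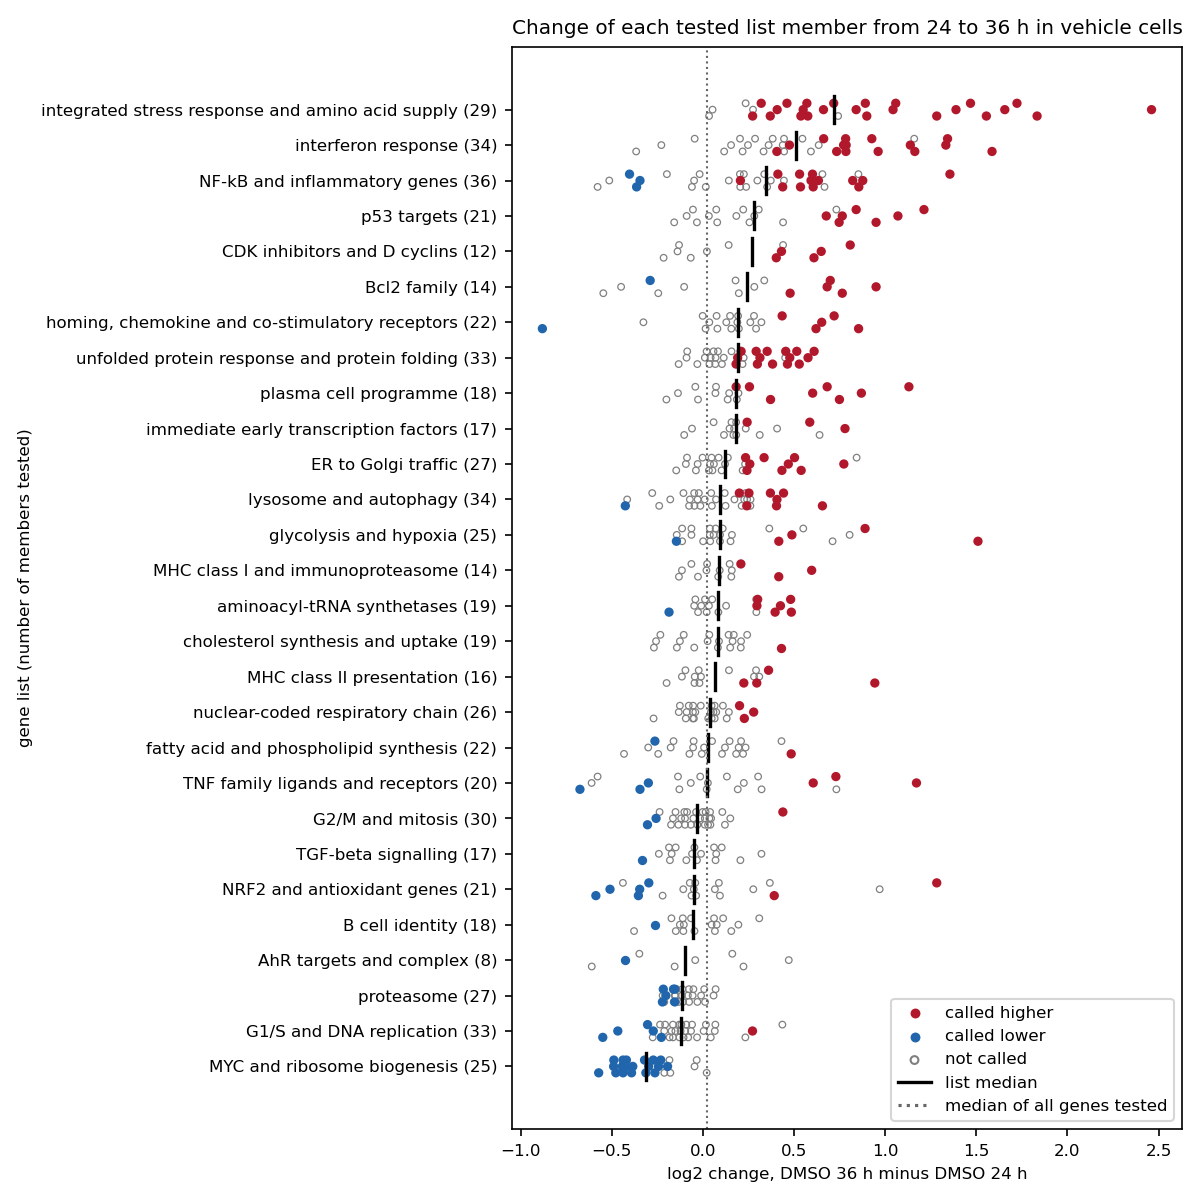
Change of every tested member of 28 gene lists from 24 to 36 h in vehicle cells, on the log2 scale, as 36 h minus 24 h; filled points were called and open ones were not, black bars mark list medians and the dotted line marks the median of all genes tested, 0.02. The integrated stress response list lies furthest right, with a median of 0.72, and the MYC and ribosome biogenesis list furthest left, with a median of -0.31.

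The largest falls were smaller than the largest rises and several were of dim genes. Tnni2, a troponin of fast skeletal muscle, was at 5.30, 5.23, 5.20 and 6.47 at 36 h, against 7.34, 7.56, 7.88 and 7.30 at 24 h. Replicate 4 at 36 h stood above its group but below all 24 h arrays, and the change was -1.97 ± 0.27 (SE, adjusted p = 2.93e-06), while a second probe set changed by -0.67 without a call. Col11a2, a collagen chain, fell by 1.65 ± 0.37 (SE), to levels of 4.95 to 5.34 at 36 h, against 6.60 to 6.96 at 24 h. Apoe, the lipid carrier apolipoprotein E, fell by 1.56 ± 0.34 (SE) with groups that overlapped (4.51 to 5.92 at 36 h and 5.89 to 7.15 at 24 h). Among brighter genes, Gabrr1, a GABA receptor subunit, was at 10.34, 10.63, 10.72 and 10.89 at 36 h and at 11.55, 11.80, 11.88 and 11.86 at 24 h. The groups lay well apart, a change of -1.13 ± 0.09 (SE, adjusted p = 1.24e-09). Dancr, a long non-coding RNA, fell by 1.00 ± 0.11 and H3c4, a replication-dependent histone gene, by 1.05 ± 0.12 (SE), each without overlap. The rest of the 12 were Gpatch3, Nbeal2, Mapk10, Ifnz, Cxcr3 and P3h2, with changes of -1.34 to -1.09. A second Nbeal2 probe set changed by -0.02. The call of Mapk10 was lost without the block (adjusted p = 0.125) and with probe sets averaged (-0.53, adjusted p = 0.102). Those of Gpatch3, Ifnz and P3h2 were lost without replicate 2 (adjusted p = 0.0529, 0.25 and 0.103) and also without replicate 3.

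The same step in TCDD cells allows a test of whether the vehicle change depended on treatment. In TCDD cells 354 of 11969 genes were called from 24 to 36 h (2.96%), 247 higher (2.06%) and 107 lower (0.894%). The difference of the steps, TCDD minus vehicle, was called for 216 genes (1.8%), 101 higher (0.844%) and 115 lower (0.961%). This count rests on the block and on single days, with 16 genes called without the block and 7 each without replicate 1 or without replicate 2. Genes called in one step and not in the other are therefore not shown to differ, and only the test of the difference is read here.

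The integrated stress response rose in both treatments, with 18 of 29 members called higher in TCDD cells at a median of 0.53, and 0 of its 29 members were called in the test of the difference by limma. Ddit3 rose by 0.95 in TCDD cells against 1.72 in vehicle cells, a difference of -0.77 ± 0.30 (SE, adjusted p = 0.216). The interferon list differed most: 0 of 34 members rose and 2 fell in TCDD cells, the median change was -0.25, and 12 members were called lower in the difference. Oasl2 was at 10.73 ± 0.19 at 36 h and 11.20 ± 0.15 at 24 h in TCDD cells (SD, n = 4 each), and at 8.21 ± 0.52 at 36 h and 6.88 ± 0.50 at 24 h in vehicle cells (SD, n = 4 each). So TCDD cells were far above vehicle cells at both times, and the difference of the steps was -1.80 ± 0.44 (SE, adjusted p = 0.0282). For Oas3, Usp18 and Oasl1 the difference was -1.90, -1.53 and -1.23. The list's count of 12 was 1 without the block and without replicate 1, 0 without replicate 2 and without replicate 4, 7 without replicate 3 and 20 without the 4 arrays that stood apart. On the MYC and ribosome biogenesis list 0 of 25 members were called in TCDD cells, with a median of -0.05, and 5 were called higher in the difference, among them Nop2 (0.56 ± 0.15, SE, adjusted p = 0.0433), which was at 10.98 in TCDD cells at 36 h and 10.99 at 24 h; 0 of them were called without the block. Rb1, Rbl1 and Cdkn1b changed by 0.19, 0.04 and 0.09 in TCDD cells, and the differences of -0.61, -0.57 and -0.56 were called with the block and not without it.

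**Figure D3:**
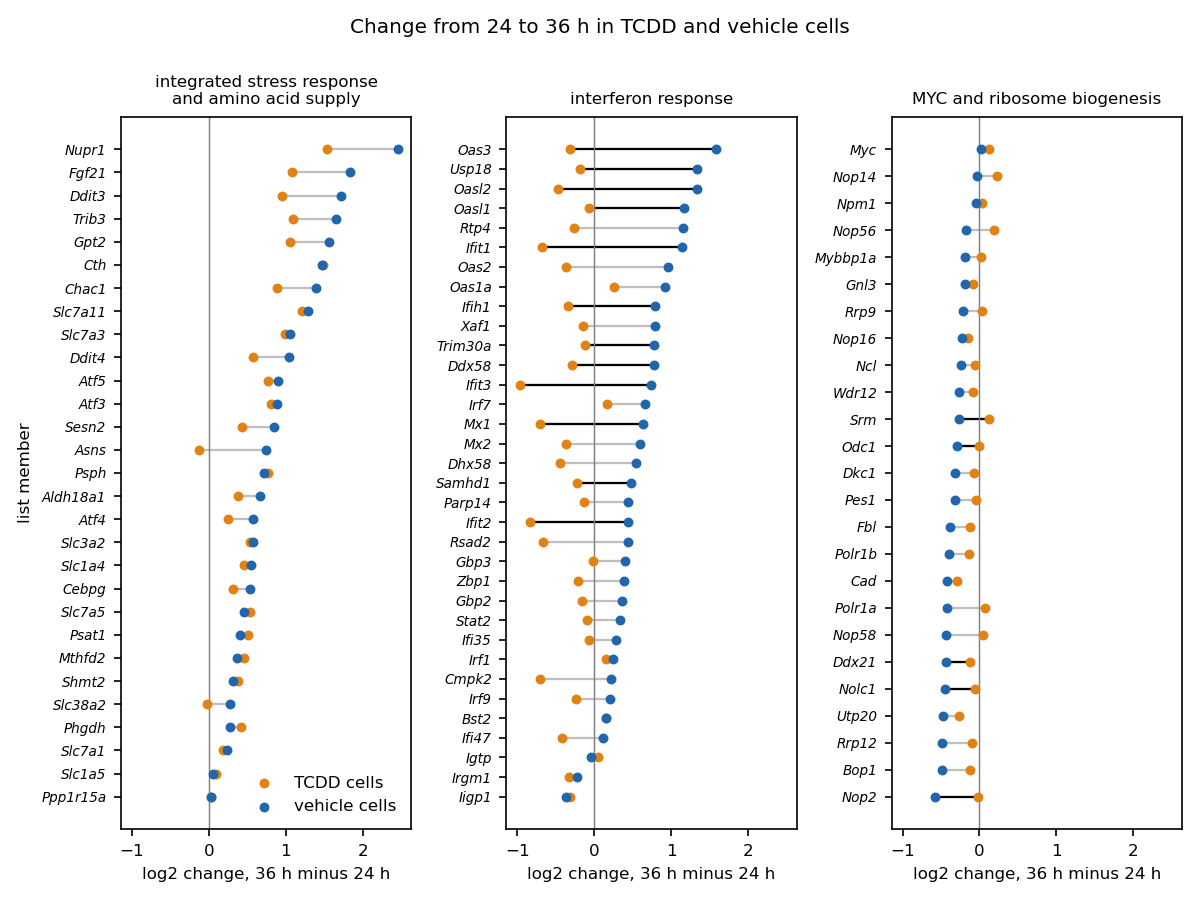
Log2 change from 24 to 36 h of each tested member of 3 gene lists, in TCDD cells (orange) and vehicle cells (blue), joined by a line that is black where the difference of the steps was called and grey where it was not. Integrated stress response members lie right of 0 in nearly all cases under both treatments with no black line; 12 interferon members have black lines, all with the TCDD point left of 0 and the vehicle point right of it; 5 ribosome biogenesis members have black lines.

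The 6 genes with the smallest p of this test were Vim, Gabrr1, Nqo2, Acod1, Myadm and Fbxl20. Vim, the intermediate filament vimentin, changed by -0.31 in TCDD cells and by 0.69 in vehicle cells, a difference of -1.003 ± 0.15 (SE, adjusted p = 0.00103), lost without the block (adjusted p = 0.401). Its vehicle levels were 13.41, 13.02, 12.25 and 12.84 at 36 h against 12.45, 12.19, 12.02 and 12.09 at 24 h, with overlap, and the vehicle change too was lost without the block (adjusted p = 0.102). Gabrr1 was already lower in TCDD cells at 24 h (11.03, against 11.77 in vehicle cells) and changed little from there, a difference of 0.88 ± 0.13 (SE, adjusted p = 0.00114, and 0.0877 without the block). Acod1 showed the largest difference, -2.63 ± 0.43 (SE, adjusted p = 0.00211): it stood at 9.69 at 36 h and 9.34 at 24 h in TCDD cells, and at 9.40 at 36 h and 6.42 at 24 h in vehicle cells. Myadm (-0.91), Nqo2 (-0.67) and Fbxl20 (-0.61) likewise rose in vehicle cells (by 1.21, 0.66 and 0.79) and changed by 0.29, -0.01 and 0.18 in TCDD cells, and the Myadm difference was not called without the block (adjusted p = 0.102). None of these 3 differences was called with probe sets averaged (adjusted p = 0.527 for Nqo2, 0.107 for Myadm and 0.0513 for Fbxl20) or without replicate 1 (0.0763 for Nqo2, 0.117 for Myadm and 0.0763 for Fbxl20), and that of Fbxl20 was not called without replicate 2 (0.112). Further Nqo2 probe sets changed by 0.02 and 0.15 in vehicle cells with no call.

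The step was set between equal steps before and after it. From 12 to 24 h 2074 genes were called (17.3%), 1153 higher (9.63%) and 921 lower (7.69%), and from 36 to 48 h 3079 (25.7%), 1762 higher (14.7%) and 1317 lower (11%). The 24 to 36 h change differed from the change before it for 478 genes (3.99%) and from the change after it for 264 (2.21%). Without the block these were 161 and 13. Replicate 4 at 12 h had a median signal of 87.9, against a median of 55.0 over all 44 arrays. Replicate 2 at 48 h had a transferrin receptor 3' to 5' log2 ratio of 2.85, against a median of 1.18. Both are among the 4 arrays that stood apart, and without those 4 the counts of 478 and 264 became 779 and 471. Neighbouring steps share arrays, so their values are given side by side without a count of calls common to 2 steps.

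In the steps to 24, 36 and 48 h, 9.63%, 9.37% and 14.7% of all genes tested were called higher and 7.69%, 8.62% and 11% lower. The integrated stress response list had 21, 24 and 9 of 29 members called higher in these steps, with medians of 0.50, 0.72 and 0.36. Ddit3 was at 7.76, 8.85, 10.57 and 11.87 at 12, 24, 36 and 48 h in vehicle cells. Ribosome biogenesis had 11, 19 and 16 of 25 members called lower in the same steps, with medians of -0.24, -0.31 and -0.24. The plasma cell list had 12 of 18 members called higher before 24 h, 8 in this step and 5 after 36 h. Its members called lower numbered 1, 0 and 4. Prdm1, called higher by 0.63 before, was called lower by 0.64 after. The unfolded protein response list had 24, 15 and 7 of 33 members called higher and 0, 0 and 4 called lower. The NF-kB list had 5 of 36 higher and 14 lower in the step to 24 h, 13 higher and 3 lower in the step to 36 h, and 9 higher and 4 lower in the step to 48 h. The interferon list had 2, 15 and 9 of 34 members called higher and 3, 0 and 3 called lower. Replication genes were called lower for 6, 5 and 19 of 33 and higher for 1, 1 and 0. Lysosome and autophagy genes were called higher for 3, 8 and 21 of 34 and lower for 1 in each step.

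**Figure D4:**
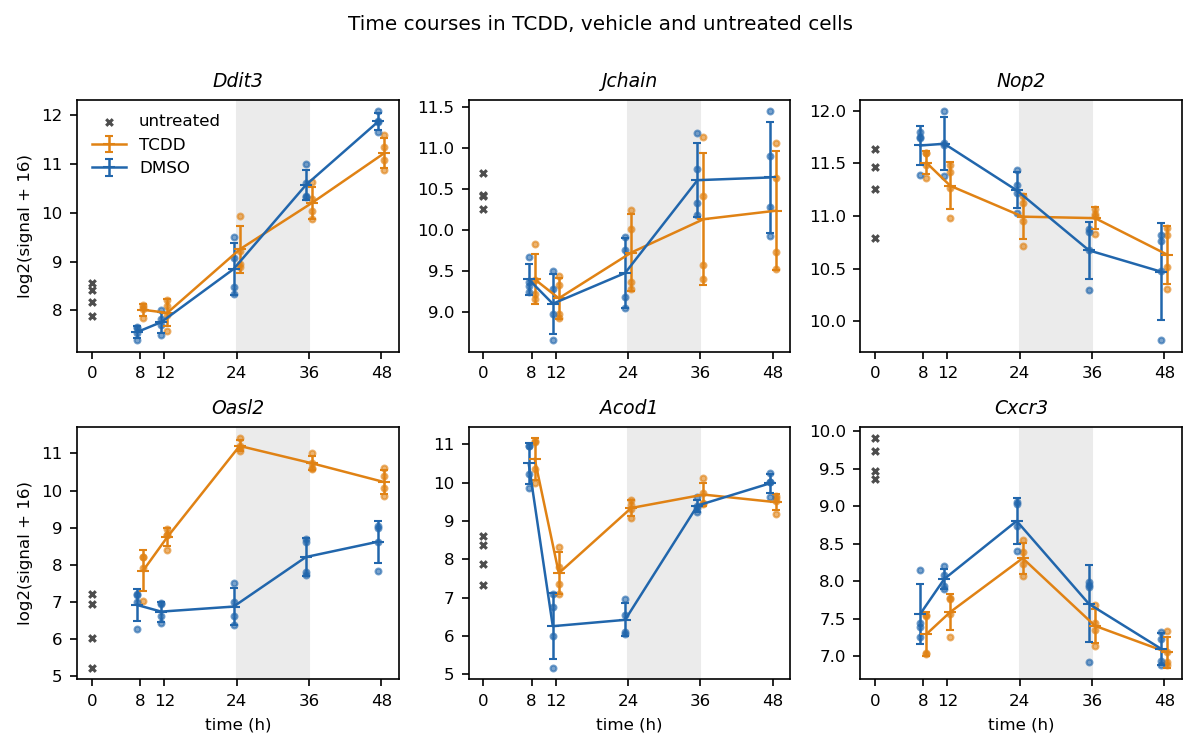
Levels of 6 genes over time as log2(signal + 16) in TCDD cells (orange), vehicle cells (blue) and untreated cells at 0 h (crosses); small points are arrays, lines join group means with SD bars (n = 4), and the shaded band is the 24 to 36 h step. Ddit3 climbed through the band under both treatments, Acod1 was low in vehicle cells at 12 and 24 h and at 9.40 by 36 h, and Cxcr3 was highest after activation at 24 h in both treatments.

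Of 11969 genes tested, 39 had a change that differed from both neighbouring steps. Of these, 28 were called in this step, 20 higher and 8 lower. The tests share the 24 h and 36 h arrays, so a stray mean of either group would help a gene pass all of them. How many hold without the block was not counted. The largest rises among the 28 were those of Acod1, Clec2g, Sox11 and Sla. Sox11, a developmental transcription factor, was at 6.42, 6.39, 6.49 and 5.90 at 36 h, against 4.67, 4.83, 4.79 and 4.88 at 24 h. It was thus close to the floor at 24 h on every array, rose by 1.51 ± 0.36 (SE, adjusted p = 0.00257) and changed by -0.88 before and -1.65 after. At 36 h its values lay near the cutoff of 6.21, with replicate 4 below it. Further Sox11 probe sets all lay below the cutoff and changed by 0.09 to 0.36 in this step. Sla, an adaptor that lowers antigen receptor signalling, rose by 1.496 ± 0.18 (SE), after 2.69 in the step before and ahead of 0.30 in the step after. The largest such falls were those of Snx24, Acin1, Trip6 and Ddx17. Acin1, of the splicing-linked exon junction machinery, was at 9.71, 10.11, 9.96 and 10.16 at 36 h and at 10.50, 10.91, 10.94 and 11.05 at 24 h, with no overlap, a change of -0.87 ± 0.11 (SE, adjusted p = 6.88e-07), and a second probe set changed by -0.88. The RNA helicase gene Ddx17 changed by 0.19, -0.63 and 0.54 in the steps to 24, 36 and 48 h, and by -0.55 from 24 to 36 h in TCDD cells.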

How the data were processed

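Expression was read on 44 Affymetrix Mouse430_2 arrays, 1 for each sample. The deposited values are linear signal intensities from GCOS 1.0, as the submitters' processing notes name it; each column has a mean of 500.0 once the lowest and highest 2% are left out, with further steps not given in the sources used here. Because the log2 medians of the arrays spanned 0.914, the intensities were quantile normalized and turned into log2(value + 16). Of 45101 probe sets, 64 controls were left out; 34945 carry 1 gene symbol, 932 several and 9160 are unnamed here, and 34741 were matched to the RefSeq table (GRCm38.p6). Each gene was read from its 1-symbol probe set with the highest mean, and no gene was named from a probe set with several symbols. Genes whose highest group mean exceeded 6.21, the median of all values, were tested (11969 of 18193).

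One fit of 11 group means over 44 arrays with the replicate number as a fixed block (30 residual degrees of freedom) was made in limma 3.58.1 (R 4.3.3), two-sided, with p-values adjusted by Benjamini-Hochberg within each comparison. The design text says that replicates were handled on separate days. Deviations from the group means of same-numbered 36 h and 24 h arrays correlated with r of 0.347, 0.129, 0.255 and 0.102, and those of differently numbered arrays with -0.246 to 0.185.

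The genes named are the 12 largest rises and falls with the same sign in all 4 pairs (skipping the clone names A930003A15Rik, 4930592C13Rik, 6720468P15Rik and Mir1949), a fixed set of genes named whatever their values, up to 4 called members of each list (4 per direction where both held 3 or more), the 6 smallest interaction p-values and the 4 largest per direction differing from both neighbouring steps; promoters are those of up to 3 called members holding a list's motif. The comparison, its gene lists and its rule for naming genes were chosen with earlier results of these data known. Alternatives were no or a random block, only the 8 arrays, other filters, values as deposited, all probe sets or their mean, pseudocounts of 1 and 64, a variance trend with intensity, and fits without each replicate or each of the 8 arrays; leaving out 4 arrays standing apart was chosen after seeing the data. The fits were tested on simulated data, and figures were made in Python 3.11.15 with matplotlib 3.10.9.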

Additional observations from a re-analysis of the deposited data

Results flagged for a closer look

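Of the 270 groups of 4 arrays looked at, 2 for each of the 135 named genes, 19 held an array whose gap to the nearest of the others exceeded Dixon's critical share of the group's range, 11 at 36 h and 8 at 24 h; chance gives about 1 in 20. At 36 h, replicate 1 was low for Cxcr3 (6.93), Mcm3 (12.2) and Bop1 (10.9) and far from the others for Msmo1 (11.2) and Ctsd (10.3). Replicate 4 at 36 h stood apart for Tnni2 (6.47), Bach2 (5.42), Tnfaip3 (11.1), Vegfa (7.86) and Sox11 (5.90), and replicate 2 for Psmc5 (12.5). At 24 h, replicate 1 stood apart for Apoe (5.89), Nusap1 (11.7), Kif23 (10.8) and Cdkn1b (9.27), replicate 2 for Tdrd7 (5.18) and Nek2 (11.9), and replicate 3 for Serpinb1a (4.59) and Ltb (8.15).

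Over all genes tested, 216 of 11969 (1.8%) were called in the test of TCDD against vehicle steps. The difference of the 24 to 36 h steps, TCDD minus vehicle, was called by limma for 25 of the 135 named genes. It was negative for Acod1 (-2.63), Oas3 (-1.90), Oasl2 (-1.80), Serpinb1a (-1.79), Clec2g (-1.64), Usp18 (-1.53), Oasl1 (-1.23), Trp53inp1 (-1.13), Vim (-1.003), Myadm (-0.91), Cd69 (-0.77), Tnfsf9 (-0.77), Nqo2 (-0.67), Rb1 (-0.61), Fbxl20 (-0.61), Rbl1 (-0.57), Map1lc3b (-0.57), Cdkn1b (-0.56) and Nbr1 (-0.50). It was positive for Tnni2 (1.86), Gabrr1 (0.88), H3c4 (0.88), Dancr (0.73), Gclm (0.62) and Nop2 (0.56). The share among named genes cannot be weighed against that of all genes, because some were named for small p-values in this test. Many others were named for their vehicle change, which enters the difference with a minus sign. This choice favours calls, and favours negative values for genes that rose in vehicle cells.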

How the results depend on the processing

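The 2153 calls of the 24 to 36 h step became 1200 without the replicate block, 946 and 509 when only the 8 arrays were fitted with and without the block, and 3429 over all probe sets, of which more were tested; without single replicates or arrays they numbered 1157 to 1971. The 216 calls of the TCDD and vehicle difference became 16 without the block, 132 with a random block, 83 with no filter, 115 with probe sets averaged per gene, 535 without the 4 arrays standing apart and 7 to 210 without single replicates or arrays. For the difference from the 12 to 24 h step the 478 calls became 161 without the block, 779 without those 4 arrays and 128 to 506 without single replicates or arrays. For the difference from the 36 to 48 h step the 264 became 13 without the block, 165 with a random block, 108 with no filter, 175 with the mean of probe sets, 471 without those 4 arrays and 4 to 217 without single replicates or arrays. The share of called genes that were higher, 52.1%, was 64.7% and 62.7% when only the 8 arrays were fitted with and without the block. Directions turned for genes that were not called: Bach2 was at 0.16 with a pseudocount of 1 and at -0.83 to 0.32 without single replicates or arrays, Pax5 at -0.20 to 0.19, Sdc1 at -0.030 to 0.42 and Cyp1a1 at -0.33 to 0.013. With the mean of probe sets, the called Golgb1, Msmo1 and Psmc6 turned to -0.044, -0.021 and 0.042. Of 128 named genes called, 41 kept call and direction under all alternatives run and 87 lost the call under at least 1; where no cause is given, it was not tested.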
